A study of Mus musculus with 4 samples.

Results

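The hormone and growth factor receptors described here are 9 genes: the gonadotropin receptors Fshr and Lhcgr, the prolactin receptor Prlr, the nuclear receptors Esr1 and Nr3c1, the tyrosine kinase receptors Insr and Igf1r, and the receptors for anti-Müllerian hormone and insulin-like peptide 3, Amhr2 and Rxfp2. They were chosen by gene symbol, and all 9 were found once among the 32285 genes listed for the library. The series holds 4 libraries of mouse testis cells made with the 10x Genomics 3′ kit, 1 each of Znhit1_KO at P16, Znhit1_KO at P35, CTRL at P16 and CTRL at P35. Its stated purpose was to follow the effects of depleting ZNHIT1 in germ cells. The labels give no deleter line, promoter, strain or number of animals. Counts were read for the Znhit1_KO library at P35, and those of the remaining 3 were not analysed here, so every comparison below is between cell classes within 1 knockout testis library. No difference between genotypes or ages was measured, and no test between samples was possible.

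Testicular somatic cells carry most of the receptors through which hormones act on spermatogenesis. Follicle-stimulating hormone and luteinizing hormone, made by the pituitary, signal through G protein-coupled receptors that raise cyclic AMP. Sertoli cells, which support germ cells inside the tubule, are the classical target of the first, and Leydig cells, which make testosterone between the tubules, of the second. Prolactin signals through JAK2 and STAT5, insulin and the insulin-like growth factors through receptor tyrosine kinases, and oestrogen and glucocorticoid through receptors that bind DNA.

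The library held 15306 barcodes and 72459160 UMIs, the molecule tags that let each captured RNA be counted once. The median barcode had 3408.5 UMIs. After filters and doublet removal 7856 cells with a median of 4607 UMIs remained, in 22 clusters, of which 6975 cells were named from markers. The classes, each called "-like" because the names rest on marker scores, were Leydig (956 cells), Sertoli (184), peritubular myoid or pericyte (671), interstitial stroma (238), macrophage (446), endothelial (75), spermatogonium (1607), early meiotic prophase (2330) and pachytene (453), and 15 lymphocyte-like cells were too few to rank. The barcode sequences of this library and each of the other 3 overlapped by 57 to 81. Levels are UMIs per 1000000 UMIs of a class (CPM), with exact Poisson 95% intervals that cover counting error only. A level is not comparable between genes here, so levels are compared within a gene. In sums of this kind, a smaller share of expressing cells and less RNA per cell cannot be told apart. The targeted gene itself, Znhit1, was at 2.58, 2.22 and 2.79 CPM in the spermatogonium-like, early prophase-like and pachytene-like classes, on 32, 27 and 21 UMIs, against 10.8 to 20.1 CPM in the 6 somatic classes. Whether the 3′ counts come from the deleted stretch of the gene is not stated in the labels.

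**Figure D1:**
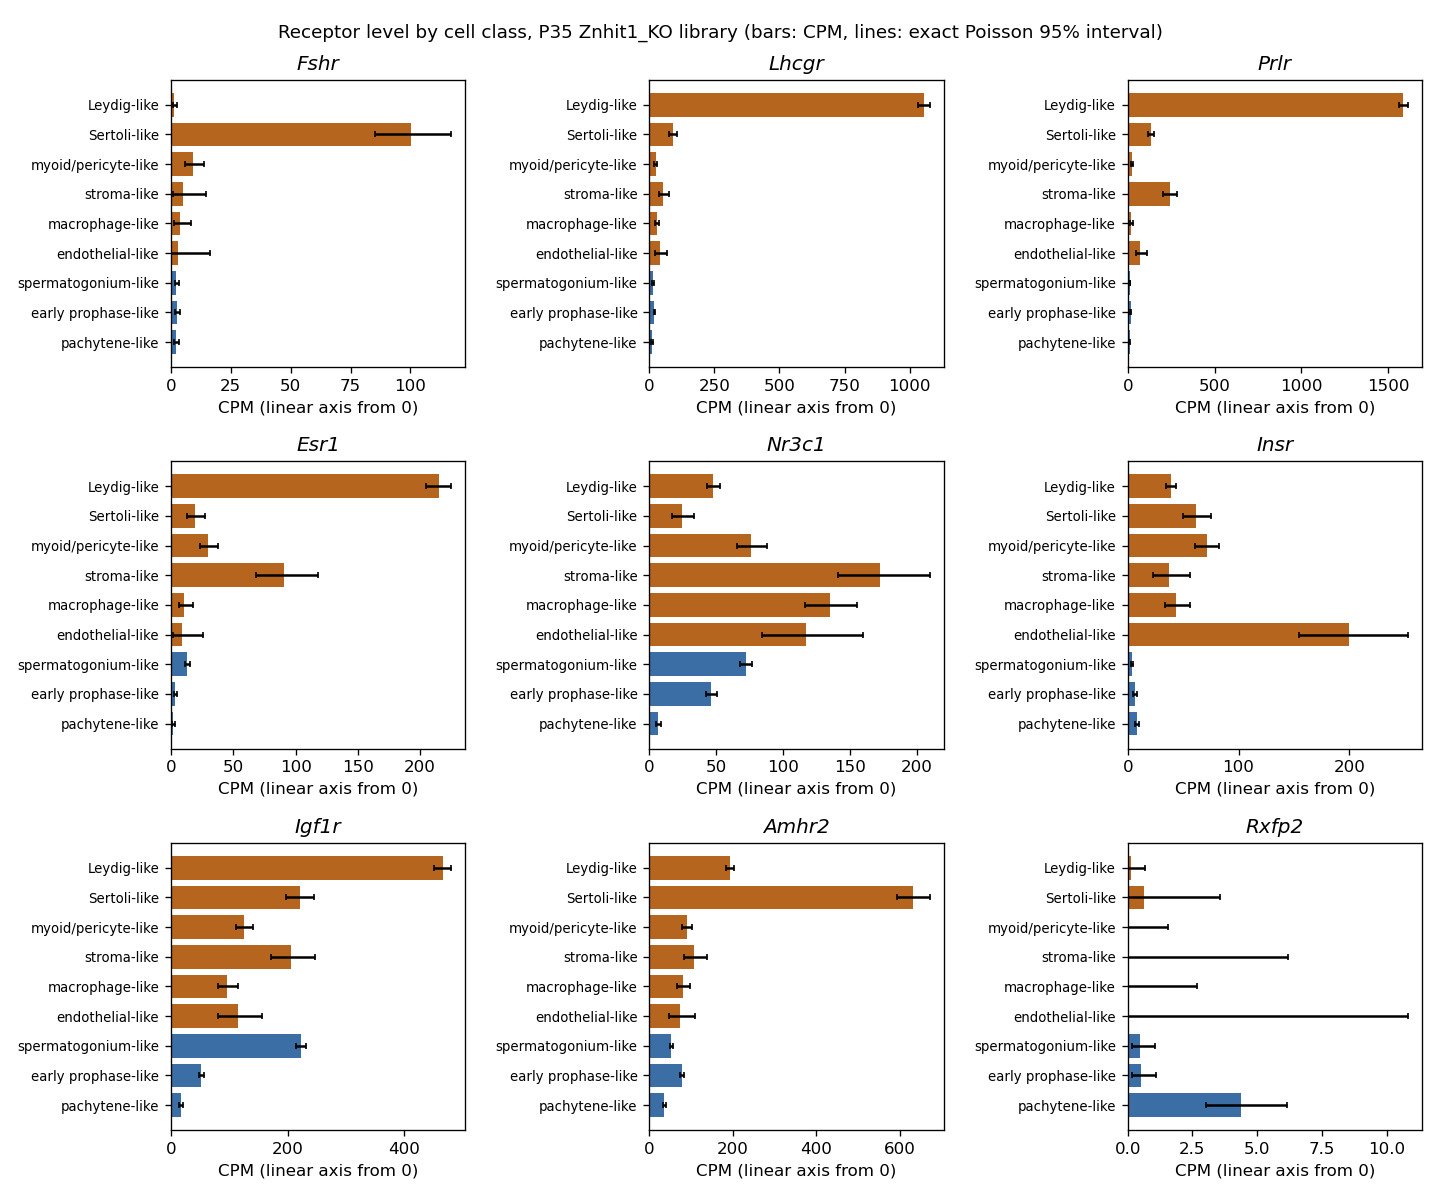
Each panel shows 1 receptor, with its level in CPM on a linear axis from 0 and the 9 named classes down the side. Bars are CPM of summed UMIs and lines are exact Poisson 95% intervals, with somatic classes in brown and germ-cell classes in blue. Leydig-like cells led Lhcgr (1055 CPM), Prlr (1586), Esr1 (214.8) and Igf1r (465.5), Sertoli-like cells led Fshr (100.1) and Amhr2 (631), stroma-like cells led Nr3c1 (173), endothelial-like cells led Insr (199.6) and pachytene-like cells led Rxfp2 (4.38).

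Of the 9 receptors, 6 were at least 2-fold higher in Leydig-like cells than in all other named cells together (Lhcgr, Prlr, Esr1, Insr, Igf1r and Amhr2). Over the 18390 genes with at least 20 UMIs on both sides together, 14.7% were higher by that much. Fshr and Rxfp2 were at least 2-fold lower there, against 49.0% of all genes. In Sertoli-like cells 3 of 9 were higher (Fshr, Insr and Amhr2), against 16.2% of all genes, and 4 of 9 were lower (Lhcgr, Prlr, Esr1 and Nr3c1), against 25.2%. In endothelial-like cells 2 of 9 were higher (Nr3c1 and Insr), against 13.0% of all genes, and 3 of 9 were lower (Lhcgr, Prlr and Esr1), against 19.0%. In stroma-like cells Nr3c1 alone was higher, against 13.4% of all genes, and Lhcgr alone lower, against 22.2%. In pachytene-like cells Rxfp2 alone was higher, against 16.6% of all genes. For stroma-like and pachytene-like cells, 1 of 9 higher is near the share of all genes. In pachytene-like cells the other 8 receptors were all lower by 2-fold or more, against 44.0% of all genes. The median gene had a log2 ratio of -0.72 in pachytene-like cells and -0.97 in Leydig-like cells, so both classes start below the rest for most genes. For every other class, the rest includes Leydig-like cells, which held 90.4% of Lhcgr, 92.4% of Prlr and 80.55% of Esr1 UMIs in the cells used. Lower than the rest is thus not low among classes. By CPM of Lhcgr, Prlr and Esr1, Sertoli-like cells ranked 2, 3 and 4 and endothelial-like cells 4, 4 and 7, while pachytene-like cells ranked 9 for each.

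Fshr, the follicle-stimulating hormone receptor, lies on chromosome 17 (88984952 to 89200675, minus strand, GRCm38) and Lhcgr, the luteinizing hormone receptor, lies beside it (88716481 to 88791990, minus strand). Their promoter windows differed in base composition, with 40.7% G and C at Fshr and 64.0% at Lhcgr. The Fshr window is shown because Fshr had the most matches among the receptors to the letters searched, and it is set beside the window of Amhr2, the other receptor led by Sertoli-like cells. Both windows run from 250 bases before the start to 50 after it, are from RefSeq (GRCm38.p6) and are written 5′ to 3′ on the gene's strand: Fshr at chr17:89200626-89200925 (minus) and Amhr2 at chr15:102445117-102445416 (plus). Capitals mark every match to 4 motifs searched on both strands. These were the steroidogenic factor 1 letters AAGGTCA, the E-box CACGTG, the GATA letters GATAA and the TATA letters TATAAA.
Fshr: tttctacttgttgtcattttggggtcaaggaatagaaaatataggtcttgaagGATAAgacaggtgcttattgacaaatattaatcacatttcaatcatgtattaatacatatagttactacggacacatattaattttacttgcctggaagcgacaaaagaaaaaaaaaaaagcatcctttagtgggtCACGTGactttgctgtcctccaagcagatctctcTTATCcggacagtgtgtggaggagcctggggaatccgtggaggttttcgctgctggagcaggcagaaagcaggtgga
Amhr2: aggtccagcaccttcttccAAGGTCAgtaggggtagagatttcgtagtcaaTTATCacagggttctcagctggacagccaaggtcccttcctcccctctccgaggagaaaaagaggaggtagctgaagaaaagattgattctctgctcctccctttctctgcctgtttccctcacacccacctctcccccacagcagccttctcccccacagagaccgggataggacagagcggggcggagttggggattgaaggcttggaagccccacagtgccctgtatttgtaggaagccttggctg

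The E-box letters stood 61 bases before the Fshr start, and 7.15% of the 32851 RefSeq windows hold them. GATAA stood 197 and, as its complement TTATC, 27 bases before the Fshr start, and 199 bases before the Amhr2 start as TTATC, and 25.4% of windows hold it on either strand. AAGGTCA stood 231 bases before the Amhr2 start, and 4.72% of windows hold it. TATAAA was in none of the receptors' windows, and 13.6% of all windows hold it. No motif overlapped another. RefSeq windows were matched for 7 of the 9 receptors, 10 windows in all, and the only other matches were AAGGTCA at Igf1r and GATAA at 1 of 2 Esr1 windows. The 1 Lhcgr window and the 3 Prlr windows held none of the 4. The data here hold no binding or accessibility measurement, so these matches describe letters only.

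Fshr RNA was led by Sertoli-like cells, at 100.1 CPM (157 UMIs, 95% interval 85.0 to 117). Peritubular myoid or pericyte-like cells came next at 9.20 CPM (22 UMIs, 5.77 to 13.9), a ratio of 10.9 (6.93 to 17.9). All other classes lay between 1.31 CPM in Leydig-like cells and 5.03 CPM in stroma-like cells, and no 2 neighbours in that order differed beyond counting error. Of Sertoli-like cells, 31.5% held an Fshr UMI, against 1.15% of Leydig-like cells, a class expected to lack this receptor. Median depths were 8508 and 8799 UMIs. After each cell was thinned to 2000 UMIs, the share was 11.6% (7.12 to 17.5) of 164 Sertoli-like cells, with 20 shallower cells left out, against 0.422% of 949 Leydig-like cells.

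Fshr was uneven among barcodes with Sertoli marker RNA. A finer clustering grouped all cells used anew. It gave Sertoli-like groups of 122 cells, led by Etd, and 80 cells, led by Wfdc18, Sncb and Tesc. Fshr was at 147 CPM (125 to 172) in the first and 21.6 CPM (12.3 to 35.1) in the second. These groups are not a division of the 184 Sertoli-like cells, and Etd was among the leading genes of unnamed cluster 4. Amhr2 differed less between the groups, at 670.5 and 472 CPM. Unnamed cluster 17 held 104 shallow cells with a median of 1389 UMIs, led by Mageb18, Grip1 and Ctnna2. Its markers were mixed, with 2727 CPM of Sertoli, 2356 CPM of early prophase and 1179 CPM of pachytene markers. Sertoli-like cells had 7610, 362 and 398 CPM of these. Fshr in cluster 17 stood at 259 CPM (93 UMIs, 209 to 318), which is 2.59 times (1.98 to 3.37) the Sertoli-like level. Unnamed cluster 4, 650 shallow cells, had 31.2 CPM of Fshr. It held 4608 CPM of Sertoli markers beside 1673 CPM of Leydig, 1743 CPM of early prophase and 1781 CPM of pachytene markers. Which cell types the barcodes of clusters 17 and 4 came from was not tested. Most Fshr RNA of the library was outside the cells used. Of its 2630 UMIs, 2226 lay in barcodes left out by the filters, and 2138 of those in barcodes of at least 1000 UMIs with over 10% of them mitochondrial. With a limit of 20% in place of 10%, the Sertoli-like class grew to 702 cells and its Fshr level was 161.5 CPM (152 to 171.5). In that setting too a group of 101 cells led by Wfdc18 and Sncb stood at 26.0 CPM, against 190.6 CPM in a group of 526 cells led by Grip1.

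**Figure D2:**
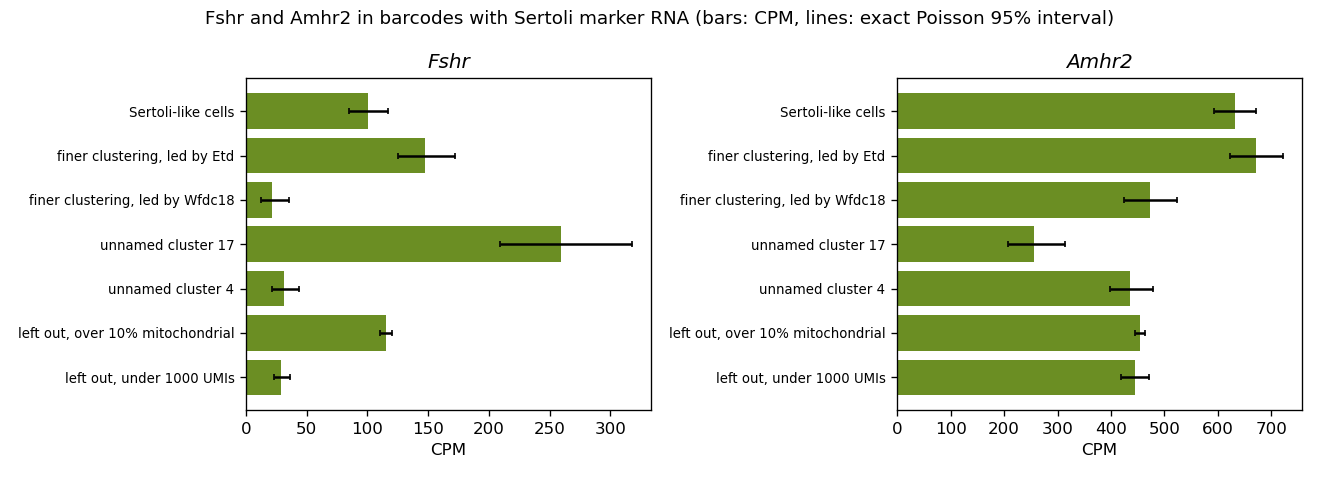
Levels of Fshr (left) and Amhr2 (right) in CPM, from 0, in the Sertoli-like cluster and the 2 Sertoli-like groups of the finer clustering. Also shown are 2 unnamed clusters with mixed Sertoli and germ-cell marker RNA and 2 sets of barcodes left out by the filters. Bars are CPM and lines exact Poisson 95% intervals. Fshr ranged from 21.6 to 259 CPM over these groups, and Amhr2 from 256.5 to 670.5 CPM.

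Lhcgr was at 1055 CPM in Leydig-like cells (8890 UMIs, 1033 to 1077), which held 90.4% of its UMIs in the cells used. Sertoli-like cells followed at 90.5 CPM (76.2 to 107), a ratio of 11.7 (9.88 to 13.9), then stroma-like cells at 53.7 and endothelial-like cells at 41.1 CPM. The remaining classes lay between 9.95 CPM in pachytene-like cells and 28.1 CPM in macrophage-like cells, and within the somatic classes below Sertoli-like cells no neighbours differed beyond counting error. Leydig markers summed to 1105 CPM in Sertoli-like cells, against 10620 CPM in Leydig-like cells and 125 to 684 CPM in the other classes, and their part in the levels outside Leydig-like cells was not tested. The Sertoli-like level was concentrated, since 117 of its 142 UMIs lay in 12 of 184 cells, each with at least 5 Lhcgr UMIs. Under the 20% mitochondrial limit, Sertoli-like cells stood at 14.7 CPM and the Leydig to Sertoli ratio was 68.3; with clusters built on 2000 variable genes it was 60.4. Of Leydig-like cells, 97.1% held an Lhcgr UMI, against 9.52% of spermatogonium-like cells, a class expected to lack this receptor. Median depths were 8799 and 6758 UMIs. The thinned shares were 80.3% (77.6 to 82.8) and 2.77%.

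The ratio of Lhcgr UMIs to 1000 UMIs of the 6 Leydig markers was 99.3 (97.2 to 101) in Leydig-like cells. It lay between 60.1 and 82.8 in 7 of the other 8 classes, and was 68.3 in barcodes under 1000 UMIs, too shallow to be used. Stroma-like cells stood at 143.5 (98.2 to 203) on 32 UMIs. Within the myoid or pericyte-like class, the Rgs5 cluster had 94.6 CPM of Lhcgr (22 UMIs, 59.3 to 143) in 14 of 68 cells, with at most 4 in a cell. That was 5.84 times (3.26 to 10.2) the Acta2 cluster at 16.2 CPM, and per 1000 Leydig marker UMIs it was 349 (219 to 529), against 55.0 (38.3 to 76.4).

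The gonadotropin signalling list, 16 genes from the receptor's G protein to cyclic AMP targets, had 4 genes at least 2-fold higher and 3 lower in Leydig-like cells, against 14.7% higher and 49.0% lower of all genes, with a median log2 ratio of -0.12 against -0.97 over all genes. Gnas, the stimulatory G protein alpha subunit, was 4.43 times as high in Leydig-like as in all other named cells (1203 against 272 CPM). Rgs2, a regulator of G protein signalling, was 3.12 times as high. Tshr, the receptor for thyroid-stimulating hormone, was at 0.237 CPM in Leydig-like cells (2 UMIs), against 3.38 CPM elsewhere, a ratio of 0.0701 (0.00841 to 0.259). In Sertoli-like cells 5 genes of the list were higher and 3 lower, against 16.2% and 25.2% of all genes, with a median log2 ratio of 0.41 against -0.10 over all genes. Pde4d, a phosphodiesterase that breaks down cyclic AMP, was 11.1 times as high in Sertoli-like cells (359.5 against 32.5 CPM), and Lgr4, a receptor for R-spondins, 3.58 times. Gnas was at 950.3 against 422 CPM, and Arrb2, an arrestin, was lower at 5.10 against 17.3 CPM.

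Prlr, the prolactin receptor (chromosome 15, 10177238 to 10349180, plus strand), was at 1586 CPM in Leydig-like cells (13366 UMIs, 1559 to 1613), 92.4% of its UMIs in the cells used. Stroma-like cells followed at 242 CPM (144 UMIs, 204 to 284), a ratio of 6.57 (5.57 to 7.80). Sertoli-like cells stood at 131 CPM, endothelial-like cells at 73.4 CPM, myoid or pericyte-like and macrophage-like cells at 23.0 and 20.9 CPM, and the 3 germ-cell classes between 12.5 and 17.2 CPM. Each of the first 4 neighbours in that order differed beyond counting error.

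The 3 non-Leydig levels at the top differed in how many cells held them. In stroma-like cells 92 of 238 (38.7%) had a Prlr UMI, with at most 5 in a cell, and the thinned share was 34.2% (26.8 to 42.2) of 155 cells. In Sertoli-like cells 193 of 206 UMIs lay in 14 cells, and in endothelial-like cells 22 of 25 UMIs lay in 2 of 75 cells. The thinned share was 93.4% in Leydig-like cells and 2.70% in spermatogonium-like cells, at median depths of 8799 and 6758 UMIs. Per 1000 Leydig marker UMIs, Prlr stood at 149 in Leydig-like cells, at 646 (545 to 760) in stroma-like cells, and between 61.6 and 119 in the other 7 classes. Stroma-like cells thus held more Prlr per Leydig marker UMI than Leydig-like cells did. When clusters were built on 2000 variable genes, 305 cells were stroma-like and the Leydig to stroma ratio of Prlr was 2.40.

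**Figure D3:**
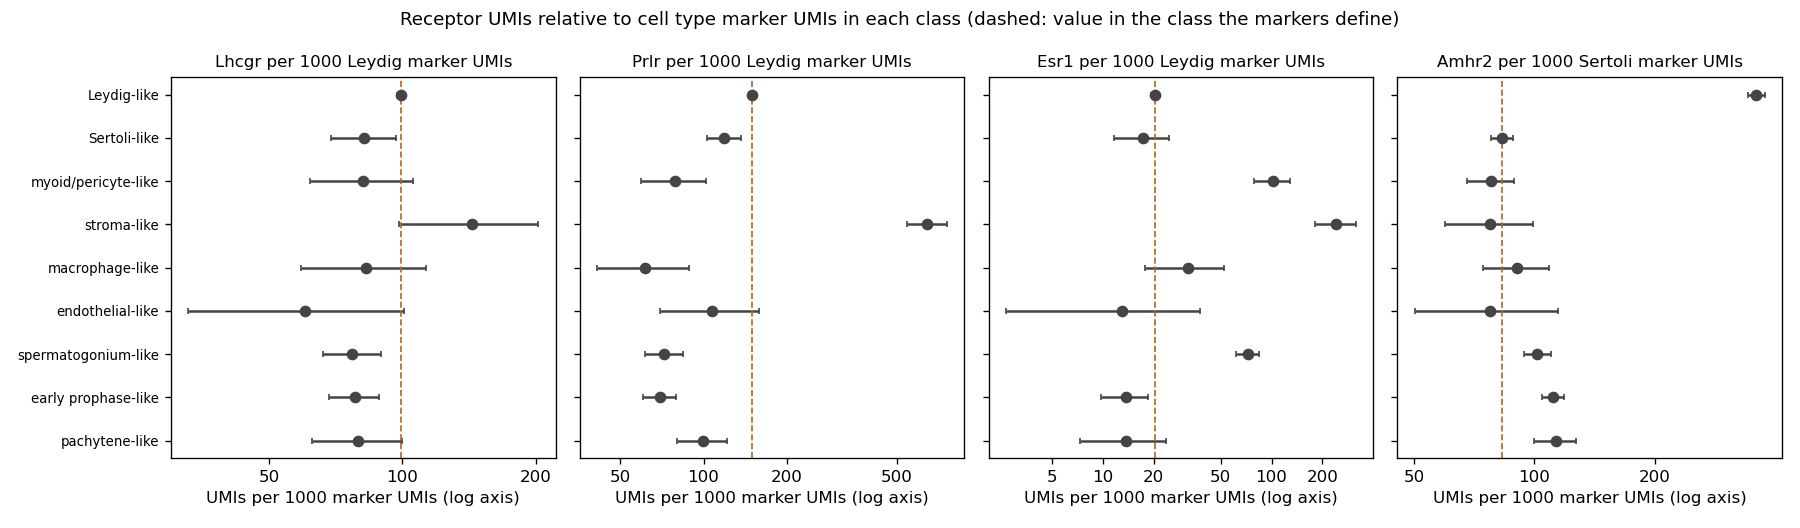
Receptor UMIs per 1000 UMIs of the Leydig markers (Lhcgr, Prlr, Esr1) or Sertoli markers (Amhr2) in each named class, on log axes, with exact Poisson 95% intervals. The dashed line is the value in the class the markers define. Stroma-like cells stood apart for Prlr (646) and Esr1 (242), spermatogonium-like (72.6) and myoid or pericyte-like (101) cells for Esr1, and Leydig-like cells for Amhr2 (358).

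Of 11 prolactin and growth hormone signalling genes, 10 could be measured in Leydig-like cells against the rest, and 4 were at least 2-fold higher and 1 lower, beside 14.7% and 49.0% of all genes, with a median log2 ratio of 0.53 against -0.97 over all genes. Socs3, an inhibitor of cytokine signalling, was 16.9 times as high (215.1 against 12.7 CPM). Stat5a, a transcription factor that prolactin receptors activate, was 3.87 times as high (19.8 against 5.13 CPM). Socs2, another inhibitor of the family, was lower, at 4.51 against 9.40 CPM.

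Esr1, oestrogen receptor alpha (chromosome 10, 4611593 to 5005614, plus strand), was at 214.8 CPM in Leydig-like cells (1810 UMIs, 205 to 225). Stroma-like cells followed at 90.6 CPM (54 UMIs, 68.0 to 118), a ratio of 2.37 (1.81 to 3.17), which was 1.56 with clusters built on 2000 variable genes. Myoid or pericyte-like cells stood at 29.7, Sertoli-like at 19.1 and spermatogonium-like cells at 13.2 CPM, and the remaining 4 classes lay between 1.72 and 10.8 CPM. From Sertoli-like through spermatogonium-like, macrophage-like and endothelial-like cells, neighbours did not differ beyond counting error. The thinned shares of cells with a UMI were 34.7% in Leydig-like, 14.2% in stroma-like and 6.20% in myoid or pericyte-like cells, against 0.438% in early prophase-like cells; median depths were 8799, 2352, 3560 and 4540 UMIs, and the unthinned shares 79.7%, 20.2%, 9.54% and 1.63%. Esr1 per 1000 Leydig marker UMIs was 20.2 in Leydig-like cells, but 242 in stroma-like, 101 in myoid or pericyte-like and 72.6 in spermatogonium-like cells, and between 12.9 and 31.9 in the other 5.

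Among germ cells, Esr1 was concentrated at the start of the series. Cluster 7, the earliest by marker score and led by Glis3, Trim71 and Sall4, had 24.7 CPM (118 UMIs, 20.4 to 29.6), with UMIs in 61 of 376 cells. Cluster 3, led by Crabp1 and Lin28a, had 7.65 CPM, a ratio of 3.23 (2.24 to 4.72) between them, and 20 of its 41 UMIs were in 1 cell. Every later germ cluster lay between 1.59 and 3.72 CPM. The finer clustering gave 34.0 CPM (21.5 to 51.0) in 69 cells with Gfra1 among their leading genes.

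The 18 other nuclear hormone receptors and their relatives included 16 that could be measured in Leydig-like cells against the rest. Of these, 8 were at least 2-fold higher and 4 lower, where all genes gave 14.7% and 49.0%, with a median log2 ratio of 0.84 against -0.97 over all genes. Thrb, a thyroid hormone receptor, was 15.8 times as high (109 against 6.90 CPM), and Nr5a1, steroidogenic factor 1, was 11.4 times as high (103 against 9.01 CPM). Nr2f2, an orphan nuclear receptor of interstitial cells, was at 306 against 71.6 CPM. Rarb, a retinoic acid receptor, was lower at 0.356 CPM (3 UMIs) against 3.10 CPM, a ratio of 0.115 (0.0234 to 0.344).

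Nr3c1, the glucocorticoid receptor, which is made by most cell types, was at 173 CPM in stroma-like cells (103 UMIs, 141 to 209.5), 135 CPM in macrophage-like cells (187 UMIs, 116 to 155.5) and 117 CPM in endothelial-like cells (40 UMIs, 83.9 to 159.9), and neither neighbouring pair differed beyond counting error (stroma over macrophage 1.28, 0.998 to 1.64). Myoid or pericyte-like and spermatogonium-like cells stood at 76.1 and 72.1 CPM, Leydig-like and early prophase-like cells at 47.7 and 46.5 CPM, and neither pair differed beyond counting error. Sertoli-like cells were at 24.2 CPM and pachytene-like cells at 6.50 CPM, each below its neighbour. The thinned shares of cells with a UMI ran from 32.3% in stroma-like and 25.6% in macrophage-like cells to 1.79% in pachytene-like cells, at median depths of 2352, 3043.5 and 13391 UMIs; the unthinned shares were 34.0%, 33.4% and 9.49%. No class is known to lack this receptor, so the share in pachytene-like cells is an upper value for background.

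Within the germ-cell clusters Nr3c1 was highest in the middle of the series and lowest at its end. In order of marker score it was at 51.5, 80.6, 95.3, 96.6, 38.6, 19.96, 11.9, 6.35 and 6.65 CPM in clusters 7, 3, 6, 2, 1, 8, 10, 11 and 14. The first step, from cluster 7 to cluster 3, was 1.57-fold (1.34 to 1.84) upward. Clusters 6 and 2, late spermatogonium-like and early prophase-like with Stra8 among its leading genes, did not differ (1.01, 0.851 to 1.21). Cluster 6 was led by the haemoglobin genes Hbb-bt, Hbb-bs, Hba-a1 and Hba-a2, and cluster 1 had Hbb-bs among its leading genes. The part of red cell RNA in these levels was not tested. Cluster 2 was 2.50 times (2.07 to 3.04) cluster 1, and the decline went on to cluster 11, with no difference between the 2 pachytene-like clusters.

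Of 12 genes that handle glucocorticoid or are known targets of its receptor, 4 were at least 2-fold higher in stroma-like cells than in the rest and 1 lower, against 13.4% and 22.2% of all genes, with a median log2 ratio of 0.90 against 0.03 over all genes. Hsd11b1, the enzyme that regenerates active glucocorticoid, was 23.7 times as high (10.9 to 47.6), on 11 UMIs. Dusp1, a phosphatase and a known glucocorticoid target, was 4.33 times as high (401 against 92.6 CPM). The chaperone Hsp90ab1 was at 983 against 1287 CPM, and Hsp90aa1, its paralogue, was lower at 647 against 2789 CPM.

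Insr, the insulin receptor (chromosome 8, 3122061 to 3279617, minus strand), was highest in endothelial-like cells at 199.6 CPM (68 UMIs, 155 to 253), 2.81 times (2.09 to 3.74) the level of myoid or pericyte-like cells at 71.1 CPM. Sertoli-like cells stood at 61.8, macrophage-like at 44.0, Leydig-like at 38.9 and stroma-like cells at 36.9 CPM. Neighbours among the last 3 did not differ beyond counting error. All 3 germ-cell classes lay lower, spermatogonium-like cells at 3.63 CPM, early prophase-like cells at 6.50 CPM and pachytene-like cells at 8.09 CPM. The thinned share was 23.7% (13.6 to 36.6) of 59 endothelial-like cells, against 0.473% of spermatogonium-like cells, and the unthinned shares were 48.0% and 2.68% at median depths of 3195 and 6758 UMIs. One germ cluster stood out: cluster 10, early prophase-like with Rad51ap2 among its leading genes, had 20.4 CPM (48 UMIs, 15.1 to 27.1), 3.07 times (1.66 to 6.03) cluster 8 before it and 2.34 times (1.47 to 3.76) cluster 11 after it. Of 2 antisense genes that overlap Insr, Gm16180 had 0 UMIs in the cells used, with an upper interval limit of 0.076 CPM, and the other was not analysed here.

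Igf1r, the receptor for insulin-like growth factors (chromosome 7, 67952827 to 68233668, plus strand), was at 465.5 CPM in Leydig-like cells (3923 UMIs, 451 to 480.3). Spermatogonium-like, Sertoli-like and stroma-like cells followed at 223, 220.5 and 206 CPM and no neighbours among them differed beyond counting error. The Leydig to spermatogonium ratio was 2.08 (1.99 to 2.19). Myoid or pericyte-like, endothelial-like and macrophage-like cells lay at 126, 114.5 and 96.5 CPM, early prophase-like cells at 52.2 CPM and pachytene-like cells at 17.2 CPM. The thinned shares were 57.2% in Leydig-like, 35.5% in stroma-like, 31.7% in Sertoli-like and 27.6% in spermatogonium-like cells, against 2.69% in pachytene-like cells, the lowest class; the first and last unthinned shares were 92.2% and 19.9% at median depths of 8799 and 13391 UMIs. Among myoid or pericyte-like cells, the Rgs5 cluster was at 219 CPM, 1.89 times (1.37 to 2.57) the Acta2 cluster at 116 CPM.

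Among germ cells Igf1r was highest in the earliest cluster. Cluster 7 had 358 CPM (1712 UMIs, 341 to 376), 2.38 times (2.19 to 2.59) cluster 3 at 150.5 CPM, and Leydig-like cells exceeded cluster 7 by 1.30-fold (1.23 to 1.38). Clusters 6 and 2 stood at 111 and 128 CPM. Cluster 2 was 4.27 times (3.50 to 5.24) cluster 1 at 29.99 CPM, and clusters 8, 10, 11 and 14 lay between 15.2 and 18.4 CPM. In the finer clustering the 69 cells with Gfra1 among their leading genes had 452 CPM (403 to 505), the highest of the 5 spermatogonium-like groups.

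**Figure D4:**
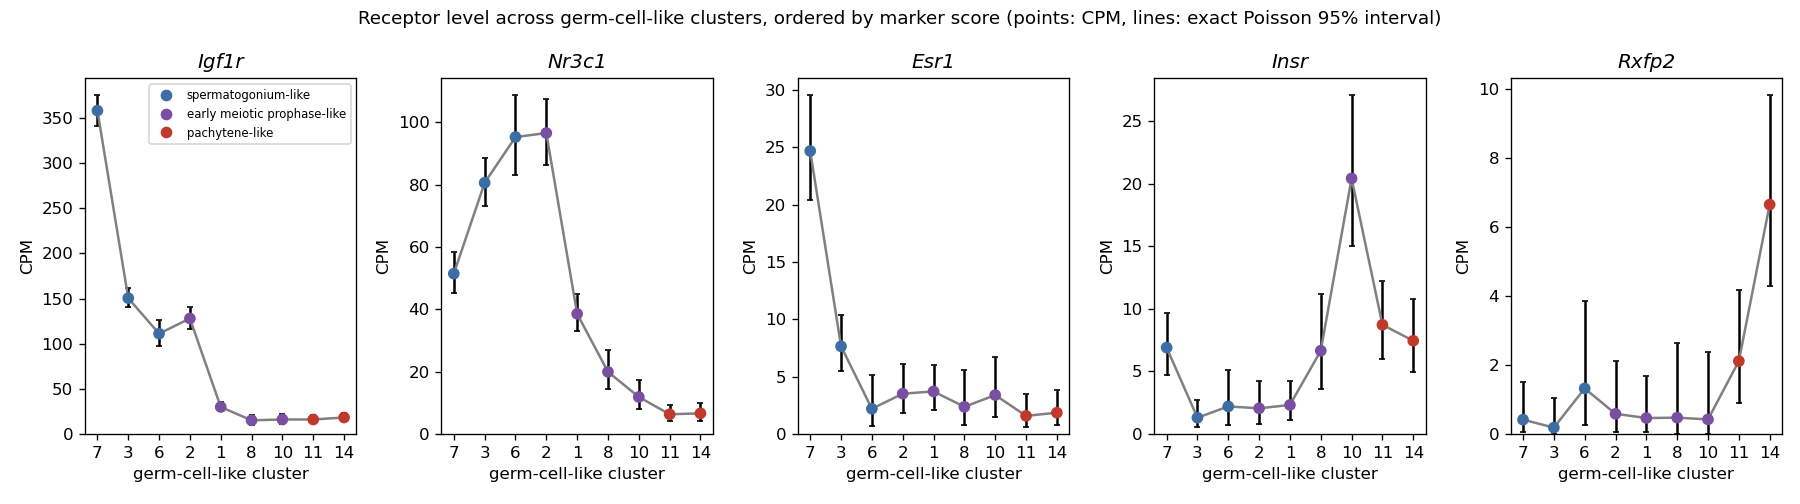
Levels of 5 receptors in CPM, from 0, over the 9 germ-cell-like clusters in order of marker score, with exact Poisson 95% intervals and points coloured by class. Igf1r (358 CPM) and Esr1 (24.7) were highest in cluster 7, Nr3c1 in clusters 6 and 2 (95.3 and 96.6), Insr in cluster 10 (20.4) and Rxfp2 in cluster 14 (6.65).

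Of 16 insulin and growth factor signalling genes 15 could be measured in Leydig-like cells against the rest, and 5 were at least 2-fold higher and 3 lower, against 14.7% and 49.0% of all genes, with a median log2 ratio of 0.16 against -0.97 over all genes. Irs1, an adaptor that both receptors phosphorylate, was 21.4 times as high (49.6 against 2.32 CPM). Pik3r1, a regulatory subunit of PI3 kinase, was 3.84 times as high (61.1 against 15.9 CPM).

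Amhr2, the type II receptor for anti-Müllerian hormone (chromosome 15, 102445367 to 102454633, plus strand), was at 631 CPM in Sertoli-like cells (990 UMIs, 592 to 671.5). Leydig-like cells followed at 192.5 CPM (1622 UMIs, 183 to 202), a ratio of 3.28 (3.03 to 3.55). The other 7 classes ran from 107 CPM in stroma-like cells to 36.2 CPM in pachytene-like cells, and neighbours from stroma-like down to spermatogonium-like cells did not differ beyond counting error. The thinned share was 68.9% (61.2 to 75.9) in Sertoli-like and 31.9% in Leydig-like cells, against 8.05% to 20.7% in the others, and the unthinned shares were 89.7%, 75.0% and 21.5% to 40.0%, at median depths of 8508 UMIs in Sertoli-like cells, 8799 UMIs in Leydig-like cells and 2352 to 13391 UMIs in the others. Per 1000 Sertoli marker UMIs, Amhr2 was 82.9 in Sertoli-like cells, between 77.5 and 113 in the 7 other classes apart from Leydig-like cells, and 96.2 in barcodes under 1000 UMIs. Leydig-like cells had 358 (341 to 376), above all of these. Of its 15351 UMIs in the library, 9828 lay in barcodes left out by the filters.

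Of 14 genes of AMH and BMP signalling, 1 was at least 2-fold higher in Sertoli-like cells and 3 were lower, against 16.2% and 25.2% of all genes, with a median log2 ratio of 0.05 against -0.10 over all genes. The 1 that was higher was the ligand Amh, at 3.80 times (1.17 to 9.66) on 5 UMIs. Bmpr2, a type II receptor for BMPs, was 1.94 times as high (143 against 73.5 CPM). Bmpr1b, a type I receptor, was at 0.637 CPM (1 UMI) against 4.77 CPM, a ratio of 0.134 (0.00337 to 0.752).

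Rxfp2, the receptor for insulin-like peptide 3 (chromosome 5, 150018675 to 150082184, plus strand), was the scarcest, with 70 UMIs in the library and 48 in the cells used. Pachytene-like cells held 33 of them, at 4.38 CPM (3.01 to 6.15). Sertoli-like cells were next on 1 UMI (0.637 CPM), a ratio of 6.87 (1.15 to 279). Spermatogonium-like and early prophase-like cells had 6 UMIs each (0.484 and 0.493 CPM) and Leydig-like cells 1. Myoid or pericyte-like, stroma-like, macrophage-like and endothelial-like cells had 0, with upper interval limits of 1.54, 6.19, 2.66 and 10.8 CPM. Of pachytene-like cells 5.74% held a UMI at a median depth of 13391 UMIs, against 0.105% of Leydig-like cells at 8799. Thinned to 2000 UMIs the pachytene-like share was 0.447% (2 of 447 cells), so no order can be read from thinned shares. Within the pachytene-like class, cluster 14, with Ldhc among its leading genes, had 6.65 CPM (25 UMIs, 4.31 to 9.82) and cluster 11, with Meig1 among its leading genes, 2.12 CPM (8 UMIs, 0.913 to 4.17). Rxfp2 overlaps Gm42558 on its own strand, with 0 UMIs, and Gm42557 on the other, with 7 UMIs in pachytene-like cells. The sources used here do not say whether counting used strand, so reads of Rxfp2 and Gm42557 may not be told apart. Of 8 relaxin family genes 3 could be measured. Insl6, a testis member of the family, was 13.4 times as high in pachytene-like cells (80.5 against 6.004 CPM). Insl3, a marker used to name the Leydig-like cells in the comparison, was lower (9.68 against 235 CPM). Rxfp1, a relaxin receptor, had 1 UMI in pachytene-like cells against 43 in the rest. Of all genes 16.6% were at least 2-fold higher and 44.0% lower in that class. The median log2 ratio of the 3 was -3.04, against -0.72 over all genes. That median is the value of Rxfp1, on 1 UMI in pachytene-like cells, so it does not describe the family.

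Single Leydig-like cells were compared after thinning to 5000 UMIs, which kept 908 of 956. Prlr had a median of 8 UMIs a cell, with 4 and 12 at the 10th and 90th percentiles, and was at 0 in 5 cells. Lhcgr had a median of 5, with 1 and 11 at those percentiles, and was at 0 in 49 cells. The variance was 2.96 times the mean for Lhcgr and 1.66 times for Prlr, against 1.01 to 1.49 for the other 5 receptors that Leydig-like cells held above 0.1 UMIs a cell. Their means were unequal, at 5.32 UMIs a cell for Lhcgr and 7.88 for Prlr, against 0.198 to 2.33 for those 5. For counts this ratio rises with the mean at the same relative spread, so it does not rank the receptors by how uneven they were between cells. The finer clustering of all cells used gave Leydig-like groups of 618 and 341 cells. Lhcgr was at 1008 and 1153 CPM in them and Prlr at 1549 and 1661 CPM.

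Across the 20 clusters of at least 50 cells, receptor profiles were compared with 12674 genes by Pearson r of log2(CPM + 1), a description over points of 1 library that share its background RNA. Lhcgr and Prlr were alike across clusters (r = 0.89), and Fshr and Amhr2 less so (0.78). Other pairs came near the second value: Prlr and Esr1 (0.78), Lhcgr and Esr1 (0.72) and Lhcgr and Amhr2 (0.70). The remaining pairs of receptors were at most 0.66. Between single Leydig-like cells, 908 of them thinned to 5000 UMIs, r of Lhcgr and Prlr was 0.129. The genes most like Lhcgr were Itih2 (0.97), Gsta3 (0.96) and Bhmt (0.96), and those most like Prlr were Cxcl1 (0.95), Akr1cl (0.94) and Pank1 (0.93). Fshr was closest to Sept14 (0.96), Mro (0.95) and Gm14569 (0.95), and Amhr2 to Clu (0.97), Defb19 (0.97) and Ttyh1 (0.97). Esr1 was closest to Rcn1 (0.91), Tspan8 (0.91) and Crtap (0.90), and Nr3c1 to Trerf1 (0.91), Fam50a (0.90) and Zfp871 (0.90). Insr was closest to Tcf4 (0.96), Irf2 (0.91) and Rgs3 (0.90), and Igf1r to Ubtf (0.92), Jtb (0.91) and Tbl1x (0.91). Rxfp2, on few UMIs, was close to Elof1 (0.91) and CK137956 (0.91).

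The ligands had their own distribution. Insl3, the Leydig hormone that binds RXFP2, was at 1016 CPM in Leydig-like cells, while its receptor had 1 UMI there. Insl3 was among the markers used to name that class, so its high level there is no separate finding. Igf1 was at 957.5 CPM in stroma-like cells, 477 CPM in macrophage-like cells, 110.0 CPM in myoid or pericyte-like cells and at most 12.8 CPM in the other classes. Igf2 was highest in stroma-like cells at 53.7 CPM on 32 UMIs. Amh had 43 UMIs in all named cells, 5 each in Sertoli-like and Leydig-like cells and 9, 11 and 9 in spermatogonium-like, early prophase-like and pachytene-like cells. Ins2 had 7 UMIs in Sertoli-like, 13 in Leydig-like and 13 in spermatogonium-like cells, and 0 to 2 in each other class. No UMI of the pituitary hormone genes Prl, Fshb and Lhb was found in the cells used, with an upper interval limit of 0.076 CPM each.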

How the data were processed

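Single-cell RNA of mouse testis was counted per gene and barcode. The deposited values are raw UMI counts; per the file headers they were made with Cell Ranger 7.1.0, and per the submitters' processing notes with STAR on mm10. The sources used here do not say how barcodes were called as cells or whether counting used strand. The count matrix of the Znhit1_KO P35 library was analysed, and the other 3 matrices were not analysed here. Of 15306 barcodes, 8121 passed minimums of 500 genes and 1000 UMIs and a mitochondrial limit of 10%, and scrublet removed 265 doublets (3.26%). Counts were scaled to 10000 UMIs and clustered in scanpy 1.11.5 (3000 variable genes, 30 components, 15 neighbours, Leiden resolution 1). Genes of the sex chromosomes and the mitochondrion, the receptors and the pathway genes (1923 in all) took no part in clustering. Clusters were named by the mean z-score of fixed markers: a score of at least 1, a lead of 0.25 over the next type (not asked between neighbouring germ stages), at least 3 markers raised 2-fold, and a median depth of at least the median over cells divided by 3. The scoring rule was chosen after the clusters were looked at, and the 2 spermatogonium types were merged because 1 cluster scored alike for both. Summed UMIs were divided by class totals. Ratios carry exact conditional binomial 95% intervals and shares Clopper-Pearson ones, all for counting error only. In ratios, a count of 0 was set to 3 counts. Thinning drew a fixed number of UMIs from each cell without replacement. Ratio steps were tested on simulated counts. Gene positions are from GENCODE M21 (GRCm38), where 32158 gene IDs matched. List genes named are the 2 largest ratios upward of at least 1.5-fold, the largest downward and the one of highest CPM, and for likeness the 3 highest r among genes with at least 200 UMIs. Some genes that these rules name are not reported here. The receptors and lists were chosen with earlier results of these data known. Alternatives were looser gene and UMI minimums, a 20% mitochondrial limit, doublets kept, resolution 2, 2000 variable genes, equal weight per cell, thinning to 1000 UMIs and a list minimum of 1 UMI.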

Additional observations from a re-analysis of the deposited data

Results flagged for a closer look

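Receptor UMIs outside the cells used were above the limit that a count of 0 allows for all 9 receptors. In the 7450 barcodes left out by the filters, which took part in no class, the levels were 93.1 CPM for Fshr, 158 CPM for Lhcgr, 261 CPM for Prlr, 44.7 CPM for Esr1, 34.8 CPM for Nr3c1, 35.6 CPM for Insr, 269.9 CPM for Igf1r, 411 CPM for Amhr2 and 0.920 CPM for Rxfp2. Per 1000 Sertoli marker UMIs, Fshr was 24.1 (23.1 to 25.2) in the barcodes over 10% mitochondrial UMIs, against 13.2 (11.2 to 15.4) in Sertoli-like cells, while Amhr2 was 95.1 against 82.9. Unnamed cluster 17, which entered no class, had 259 CPM of Fshr, more than any named class. The part of the mitochondrial share in the Fshr level was not tested. Cluster 17 had a median of 1389 UMIs. Unnamed cluster 4 had 31.2 CPM of Fshr at a median of 1244.5 UMIs, and barcodes under 1000 UMIs had 28.8 CPM. These sets also differed in marker RNA, and the part of depth in the Fshr level was not tested.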

How the results depend on the processing

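The class with the highest level stayed the same for all 9 receptors under all 6 alternatives that changed cells, clusters or weights (54 of 54 pairs), and no ratio turned round. For Nr3c1 that first place was within counting error from the start (stroma over macrophage 1.28, 0.998 to 1.64). With 2000 variable genes its ratio was 1.01. The next class changed in 7 pairs, 4 of Igf1r, 2 of Lhcgr (20% mitochondrial UMIs and 2000 variable genes, to stroma-like cells) and 1 of Rxfp2; ratios here keep the original pair of classes. Of 54 levels under those alternatives 34 stayed within the counting interval, and of 54 ratios 41 did. The cause of each shift was not tested. With minimums of 200 genes and 500 UMIs, where no doublet was called (0 of 11154), Amhr2 and Fshr in Sertoli-like cells were 557.9 and 74.23 CPM, Lhcgr and Prlr in Leydig-like cells 1000 and 1517 CPM, and the Amhr2 Sertoli to Leydig ratio 2.983. With 2000 variable genes, Amhr2 and Fshr were 571.2 and 131.5 CPM, Nr3c1 in stroma-like cells 136.6 CPM, and the leading ratios 2.856 for Amhr2, 1.562 for Esr1, 60.36 for Lhcgr and 2.397 for Prlr. With 20% mitochondrial UMIs allowed, Amhr2, Fshr, Igf1r, Lhcgr and Prlr were 807.4, 161.5, 443.8, 1002 and 1541 CPM in their leading classes, and the ratios 4.243 for Amhr2, 1.908 for Igf1r, 68.32 for Lhcgr and 5.553 for Prlr. With doublets kept, Amhr2, Fshr, Lhcgr and Prlr were 553.3, 127.8, 1000 and 1515 CPM, and the Amhr2 ratio 2.971. At resolution 2, Amhr2 was 589.8 CPM and the Igf1r ratio 1.927. With equal weight per cell, Fshr, Igf1r and Prlr were 81.0, 448.6 and 1554 CPM, and the ratios 2.611 for Igf1r and 15.72 for Lhcgr. Thinning to 1000 UMIs gave shares of 40.76% for Amhr2, 17.99% for Esr1, 35.67% for Igf1r, 58.05% for Lhcgr, 15.55% for Nr3c1 and 76.78% for Prlr, as fewer UMIs leave fewer cells with one. A minimum of 1 UMI raised the relaxin family genes higher in pachytene-like cells to 2, and the other 15 list counts stayed within 1.5 times their value. No paired analysis was possible because counts of 1 library only were analysed. With 1 library no spread between animals was measured, and classes of 75 to 238 cells give the widest intervals.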
